A study of Mus musculus with 20 samples.

Results

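Contact was described between the *Lbx1*/*Fgf8* locus and the stretch that follows it on the telomeric side, in capture Hi-C (cHi-C) maps of mouse limb buds at E11.5. The locus was taken as chr19:45290001-45810000 and the telomeric flank as chr19:45835001-46400000 (mm9), and a bin pair was included when 1 of its 5 kb bins lay in the locus and the other in the flank. This gave 11752 of the 77028 bin pairs of the captured interval, of which 11639 held values in all 6 maps. The 25 kb between locus and flank are called the telomeric boundary here and hold *Fgf8*. The rule used positions only and no measured value.

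The maps were of homozygous *Dup*, *Inv1* and *Inv2*, heterozygous *Dup* and *Inv1*, and wild-type fore- and hindlimb buds. *Dup* is a tandem duplication of 541 kb from before *Lbx1* into the stretch between *Fbxw4* and *Fgf8*, *Inv1* an inversion of 123 kb from between *Btrc* and *Poll* into an intron of *Fbxw4*, and *Inv2* an inversion of 460 kb from between *Lbx1* and *Btrc* to the telomeric cut of *Dup*. Mutant embryos came from CRISPR/Cas9-edited G4 embryonic stem cells by diploid or tetraploid aggregation, and the labels give the c57bl6.J strain for the wild-type embryos. The paper states that the stock of each mouse line was set up with crosses of founders to C57BL/6 animals. For its single-cell data it gives a C57BL/6 background for *Dup* and a G4 hybrid background for *Inv1*. Strain may therefore differ between the mutants as well, and how much it adds to a difference between genotypes cannot be told apart. The 20 samples had been merged before deposit into 1 map per genotype, from 3 biological and 1 technical replicate for each homozygous mutant and the wild-type, 3 replicates for heterozygous *Inv1* and 1 for heterozygous *Dup*. No test between genotypes was therefore possible, and every interval below is a 95% counting interval that leaves out the spread between embryos.

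Topologically associating domains (TADs) are stretches of chromatin whose parts contact each other more often than the parts of neighbouring stretches. Their boundaries often carry sites of CTCF, a zinc finger protein at which the movement of cohesin along the DNA is halted in a way that depends on the direction of the site. *Fgf8*, a growth factor of the apical ectodermal ridge (AER) that keeps the limb growing, lies at the telomeric end of its TAD, and its AER enhancers lie mostly in the introns of *Fbxw4*. *Lbx1*, a homeobox gene of migrating muscle precursors, lies in the neighbouring centromeric TAD with *Btrc*. *Poll* and *Dpcd* start from a shared stretch at the boundary between the TADs. The limb bud was profiled whole, so the ridge is only a small share of the cells.

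The cuts that set the segments of the locus are shown first, because each contact below is read by whether a segment lies before, between or behind them. Each guide sequence matched chromosome 19 of mm9 at 1 place. In the sequences below, 15 bases lie before and 15 behind the 20 bases matched by the guide. Capitals mark these 20 bases and the 3 bases of the PAM, which are the first of the 15 behind.
*Inv1* centromeric cut, after base 45611050, plus strand, intergenic: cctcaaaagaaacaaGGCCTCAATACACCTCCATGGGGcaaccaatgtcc
*Inv1* telomeric cut, after base 45734101, plus strand, intron of *Fbxw4*: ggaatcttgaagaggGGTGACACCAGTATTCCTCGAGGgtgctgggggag
*Inv2* centromeric cut, after base 45332288, plus strand, intergenic: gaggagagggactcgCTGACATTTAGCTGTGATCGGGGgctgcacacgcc
*Inv2* and *Dup* telomeric cut, after base 45792725, minus strand, intergenic: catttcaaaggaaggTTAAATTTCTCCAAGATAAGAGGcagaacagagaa
The centromeric cut of *Dup*, after base 45251633, lies outside the locus. The cuts leave 5 segments: the *Lbx1* segment (8 bins), the *Btrc* segment (56 bins), the *Inv1* interval with *Poll*, *Dpcd* and most of *Fbxw4* (25 bins), the segment telomeric of *Inv1* (12 bins) and the segment next to *Fgf8* (3 bins).

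The telomeric boundary held 5 matches to the letters CCANNAGNNGGC, the core of the CTCF motif searched on both strands with N for any base, of which 4 lay on the plus and 1 on the minus strand. They are shown because the contacts described here all run across them, with the 12 motif bases in capitals and 9 bases on either side, read on the strand of the match.
Base 45811875, plus strand, inside *Fgf8*: gtgggcaccCCAGCAGATGGCgaggggagc
Base 45821024, plus strand: taaacacgcCCACCAGAGGGCgctagttcc
Base 45822167, minus strand: ccccagggaCCACCAGGTGGCactgtggcc
Base 45827106, plus strand: tcagacacaCCACAAGAGGGCatcagaccc
Base 45830696, plus strand: tcagacacaCCAGAAGAGGGCatctaatcc
The last pair share the bases before the core. A match was common in the captured interval: 75 of 78 windows of 25 kb (96.2%) held at least 1, and 21 of them (26.9%) held as many as the boundary or more. CTCF binding was not analysed here, and a match is only a match of letters.

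The junctions that the rearrangements create were present in the maps labelled with them. Over the 4 × 4 bins that meet at the *Inv1* junction, contact relative to the mean at the reference distance was 3.73 in *Inv1* and 2.04 in heterozygous *Inv1*, against 0.670 in the wild-type. At the *Inv2* junction it was 8.52 in *Inv2*, against 1.66 in the wild-type. At the *Dup* junction it was 9.41 in *Dup* and 6.47 in heterozygous *Dup*, against 1.98 in the wild-type. The heterozygous *Dup* library thus carried the duplication junction, although 1 of its labels names an inversion. The bin pairs of locus and flank held 592474 read pairs in *Dup*, 619177 in *Inv1*, 673918 in *Inv2*, 182319 in heterozygous *Dup*, 414049 in heterozygous *Inv1* and 320366 in the wild-type. The median bin pair held between 12 read pairs (heterozygous *Dup*) and 45 (*Inv2*), and 21 in the wild-type.

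Contact is given as balanced signal per bin pair, with the wild-type map scaled to a total of 1000000 and each mutant map brought to the wild-type mean at each distance over the bin pairs outside its rearranged interval. In the wild-type, the locus and the flank had a mean contact of 3.84, which was 0.785 of the mean of all bin pairs at the same distances. Relative to distance, contact with the flank was lowest beside the boundary and rose towards the far end of the locus. It was 0.486 for the segment next to *Fgf8*, 0.566 for the segment telomeric of *Inv1*, 0.775 for the *Inv1* interval, 0.898 for the *Btrc* segment and 1.46 for the *Lbx1* segment. The levels themselves followed distance and were 5.65, 5.19, 4.86, 3.10 and 3.29 in the same order, so the *Lbx1* segment, the farthest from the flank, was slightly above the nearer *Btrc* segment. Relative to each mutant map's own mean at the same distances, locus and flank had 0.840 in *Inv1*, 0.845 in *Inv2* and 0.850 in heterozygous *Inv1*. In the balanced *Dup* maps this was 0.786 in *Dup* and 0.901 in heterozygous *Dup*.

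The flank itself was not even. Its 50 kb blocks, counted from the boundary, had a mean wild-type contact with the locus of 8.33 in the first, 5.22 in the second, 4.72 to 4.94 in the third to the fifth, 4.08 in the sixth, 2.52 in the seventh and 1.87 to 2.21 in the last 5. The step between the sixth and the seventh block is placed at the block edge, base 46135001. Before this edge lies the shared start region of *Ldb1*, a cofactor of LIM domain proteins, and *Pprc1*, a transcriptional coactivator. Behind it lies the start of *Nolc1*, a nucleolar protein gene. By 5 kb bin the fall began before the edge. Wild-type contact was 3.51 at 46110001, 4.93 at 46115001, 4.22 at 46120001, 3.45 at 46125001, 3.12 at 46130001 and 2.72 at 46135001. Much of the fall thus lay within *Pprc1*. Contact over the 100 kb before the step was 1.91 times that over the 100 kb behind it in the wild-type, against 1.34 from the decay with distance. Across the same position the mutant maps had ratios of 1.95 in *Inv1*, 2.00 in *Inv2*, 2.08 in heterozygous *Inv1*, 1.74 in *Dup* and 1.85 in heterozygous *Dup*.

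**Figure D1:**
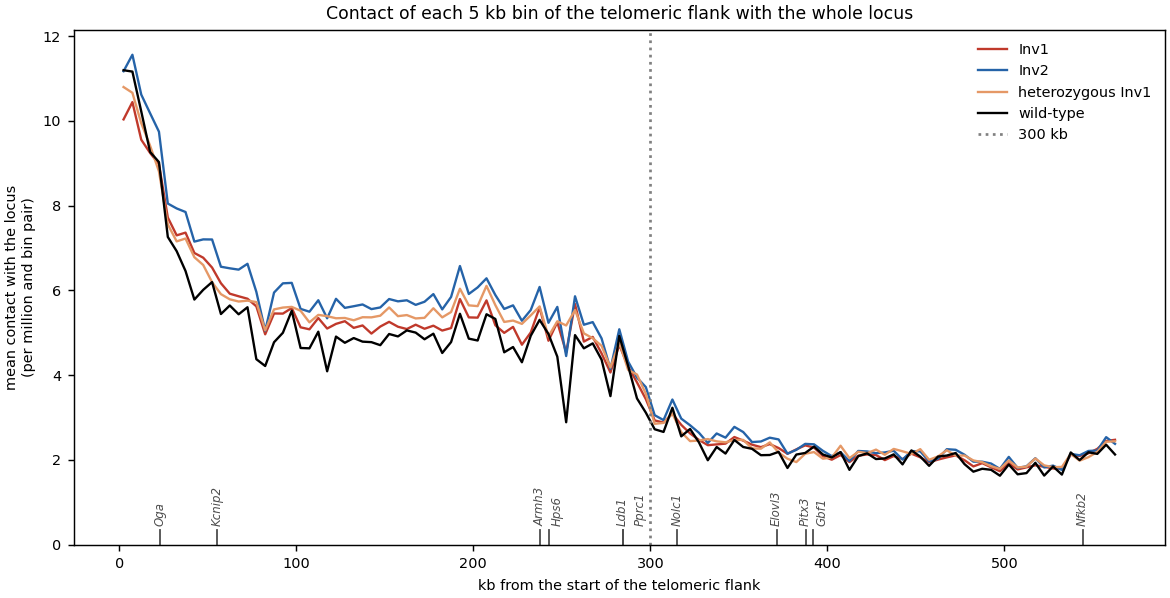
Mean contact of each 5 kb bin of the telomeric flank with the whole locus (per bin pair, wild-type total of 1000000), by distance in kb from the start of the flank, for *Inv1*, *Inv2*, heterozygous *Inv1* and the wild-type, 1 line per map. The *Dup* maps are not drawn. In all drawn maps contact drops about 300 kb into the flank, by 1.91 times in the wild-type between the 100 kb before and the 100 kb behind.

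For the comparison by blocks, the locus was divided into 11 and the flank into 12 blocks of 50 kb, the last of each range being shorter, which gave 132 blocks. A block was called higher or lower when contact differed by at least 1.2 times and the counting interval left out 1. The background for each count is the share of all 861 blocks of the captured interval called in that direction in the same pair of maps.

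In *Inv1*, 25 of the 132 blocks (18.9%) were higher and 2 (1.52%) lower than in the wild-type, against 5.23% and 3.6% of all 861 blocks. The ratios ran between 0.686 and 1.42, with a median of 1.05. The higher blocks lay in 4 of the 11 locus blocks: 9 in the block at 45590001-45640000, which the centromeric cut and *Poll* share, 6 and 9 in the last pair before the boundary, which are not moved, and 1 at the far centromeric end. The 2 lower blocks paired the first flank block with the locus blocks at 45640001-45690000 and 45690001-45740000, which hold *Dpcd* and *Fbxw4*. Of the 25 higher blocks, 18 lay before the step in the flank and 7 behind it. The count depended on the scaling: with the maps scaled to their totals only, 81.1% of blocks were higher.

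In *Inv2*, 57 blocks (43.2%) were higher and 24 (18.2%) lower, against 11.3% and 13.1% of all 861 blocks. The ratios ran between 0.472 and 2.17, with a median of 1.18. All higher blocks lay in the first 7 locus blocks, up to base 45640000, and all lower blocks in the next 3, up to base 45790000. The highest ratio was that of the second locus block, the first that lies wholly in the inverted stretch, with the first flank block: 10.7 in *Inv2* against 4.91 in the wild-type. The lowest was that of the tenth locus block, the last that lies wholly in it, with the same flank block: 5.88 in *Inv2* against 12.5 in the wild-type. Both of these lay in the 50 kb of flank that follow the boundary. With the maps scaled to their totals only, 10.6% of blocks were lower. The last locus block, of which most bins are not moved, had ratios between 0.91 and 1.11.

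In heterozygous *Inv1*, 12 blocks (9.09%) were higher and 1 (0.758%) lower, against 3.14% and 6.04% of all blocks, with ratios between 0.820 and 1.27. Its share of higher blocks was 79.5% with the maps scaled to their totals only and 43.2% with scaling factors taken from bin pairs on 1 side of the inversion.

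**Figure D2:**
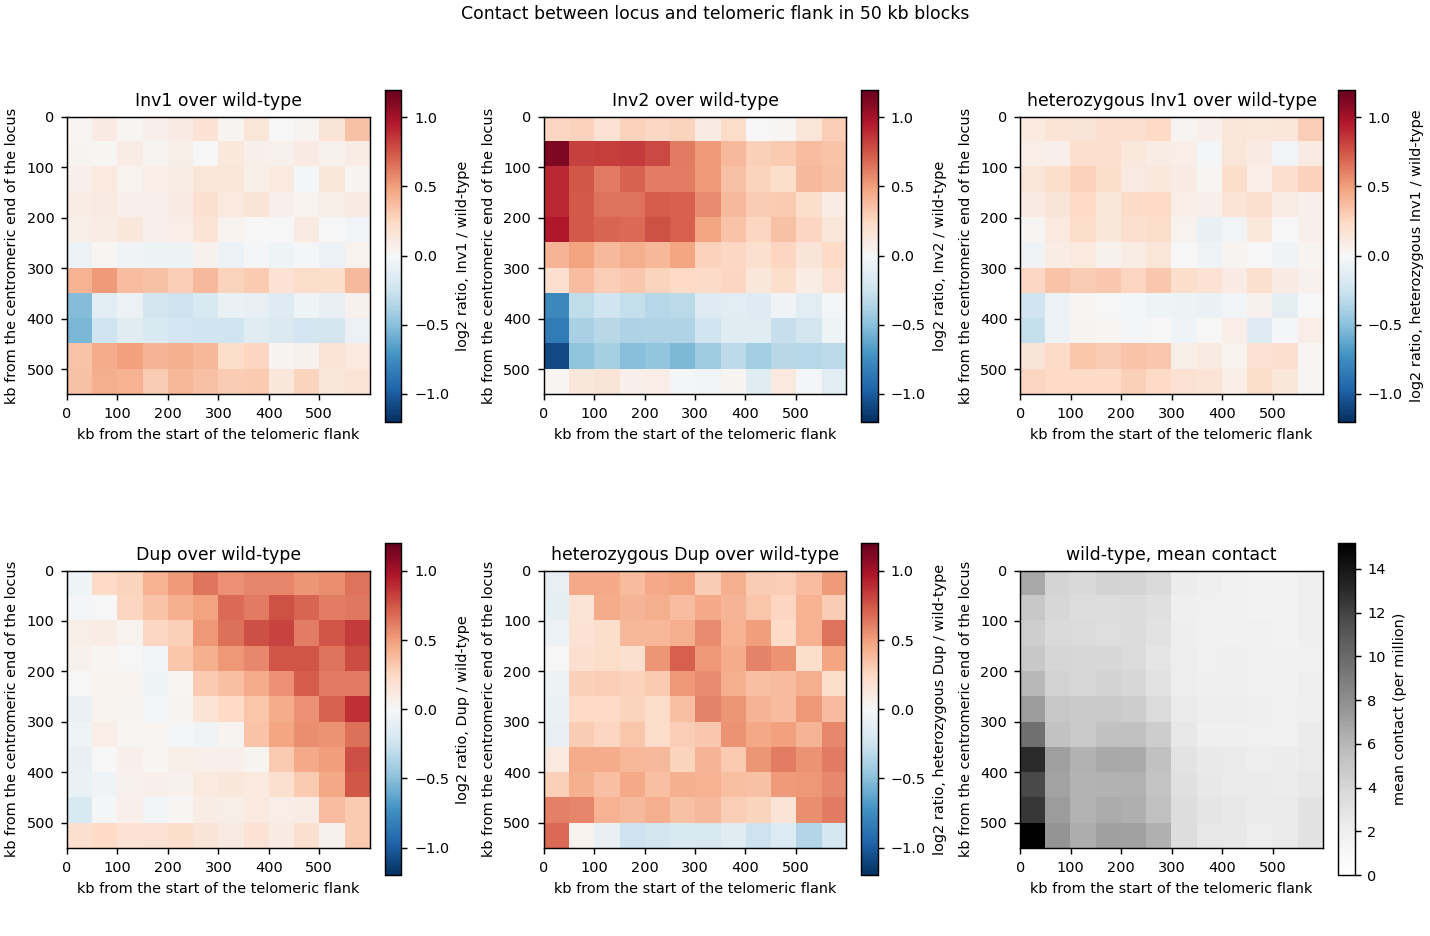
Contact between locus (vertical axis, kb from its centromeric end) and telomeric flank (horizontal axis, kb from its start) in 50 kb blocks, as the log2 ratio of each mutant map over the wild-type and, in the last panel, as the wild-type mean contact per bin pair. The last block of each axis is shorter than 50 kb but drawn at full width. In *Inv2* the first 7 rows hold 57 higher blocks and the next 3 rows 24 lower ones, while in *Inv1* 24 of the 25 higher blocks lie in the seventh row and in the last pair of rows, and 1 in the first.

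To follow the segments, their contact with the whole flank was compared with that expected if it depended only on distance in the rearranged order, using the wild-type decay. The *Btrc* segment, which *Inv2* carries next to the boundary, had a contact of 4.64 in *Inv2* against 3.10 in the wild-type, a ratio of 1.5 (1.49 to 1.51). All 56 of its bins were higher in *Inv2*, with ratios between 1.21 and 1.90. The segment telomeric of *Inv1*, which *Inv2* carries to the far end, had 3.61 in *Inv2* against 5.19 in the wild-type, a ratio of 0.697 (0.688 to 0.706). The *Inv1* interval, which *Inv2* also takes farther from the flank, had 4.14 in *Inv2* against 4.86 in the wild-type, a ratio of 0.853 (0.846 to 0.860). The *Lbx1* segment, which keeps its place, had a ratio of 1.06 (1.05 to 1.08; 0.990 with scaling factors from all bin pairs), and the segment next to *Fgf8*, which keeps its place as well, 1.12 (1.1 to 1.14).

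When the *Inv2* interval was divided at its midpoint, the part that moves nearer to the flank had 4.61 in *Inv2* against 2.96 in the wild-type, a ratio of 1.56 (1.55 to 1.57), where distance alone gave 2.08. The part that moves away had 4.14 in *Inv2* against 4.72 in the wild-type, a ratio of 0.876 (0.871 to 0.882), where distance alone gave 0.482. Both parts thus differed from the wild-type in the direction of their new distance and, with this scaling and decay, by less than it gave. For the nearer part the shortfall depended on these choices. Distance gave 1.70 with the decay from the bin pairs of locus and flank alone, and the measured ratio was 1.75 with the maps scaled to their totals only. The gain of the nearer part was 1.79 over the first 100 kb of the flank, 1.60 over the next stretch up to the step and 1.27 behind the step. Across the 131 blocks for which distance gave a ratio other than 1, the slope of the measured on the expected log2 ratio was 0.36 (r = 0.87 across blocks, which share bins and the same pair of maps and are not independent).

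In *Inv1*, divided in the same way, the part that moves nearer had 5.35 against 4.70 in the wild-type, a ratio of 1.14 (1.12 to 1.15; 1.25 from distance), and the part that moves away had 3.87 against 5.02, a ratio of 0.772 (0.763 to 0.781; 0.787 from distance). Without the 2 bins on either side of each cut the nearer part had a ratio of 1.01, with bins above and bins below the wild-type among those that remained. Over the 36 blocks that hold moved bins the slope on the expected log2 ratio was 0.78 (r = 0.77). In heterozygous *Inv1* the nearer part had a ratio of 1.11 (1.1 to 1.12) and the part that moves away 0.920 (0.909 to 0.932). With the maps scaled to their totals only, the ratio of the part that moves away was 1.08, so that its direction turned.

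**Figure D3:**
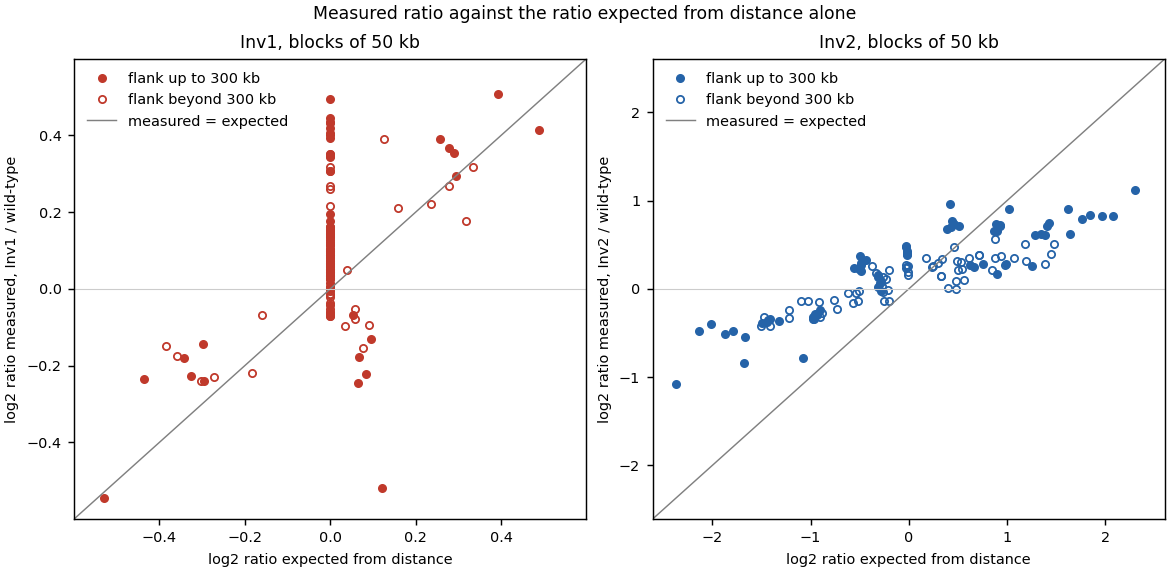
Measured log2 ratio of contact with the flank, mutant over wild-type, against the log2 ratio expected from distance in the rearranged order, 1 point per 50 kb block, for *Inv1* and *Inv2*. The slope is 0.36 over the 131 blocks of *Inv2* with an expected change and 0.78 over the 36 of *Inv1*.

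In *Inv1*, bins that did not move differed from the wild-type as well. The segment telomeric of *Inv1* had a contact of 6.68 with the flank in *Inv1* against 5.19 in the wild-type, a ratio of 1.29 (1.27 to 1.3), and the segment next to *Fgf8* had 7.22 against 5.65, a ratio of 1.28 (1.25 to 1.3). For both, distance alone gave 1.00. All 14 bins with values between the telomeric cut and the boundary were higher in *Inv1*, with ratios between 1.19 and 1.59. The gain of these bins was 1.33 (1.32 to 1.35) over the 300 kb of flank before the step and 1.14 (1.11 to 1.16) behind it. In heterozygous *Inv1* their ratio over the whole flank was 1.18 (1.17 to 1.19), where an equal mixture of the *Inv1* and wild-type maps gave 1.14. Before the centromeric cut, the 64 unmoved bins had a ratio of 1.03 (1.03 to 1.04) in *Inv1*. In heterozygous *Inv1* these 64 bins had 1.08 (1.07 to 1.09), where the equal mixture gave 1.02. Heterozygous *Inv1* thus lay above the mixture in the unmoved bins on both sides of the inverted interval. In *Inv1*, the stretch of unmoved bins on the side of the flank thus differed from the wild-type more than the unmoved bins on the far side. The spread between embryos is not in these intervals, and the difference was not tested.

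**Figure D4:**
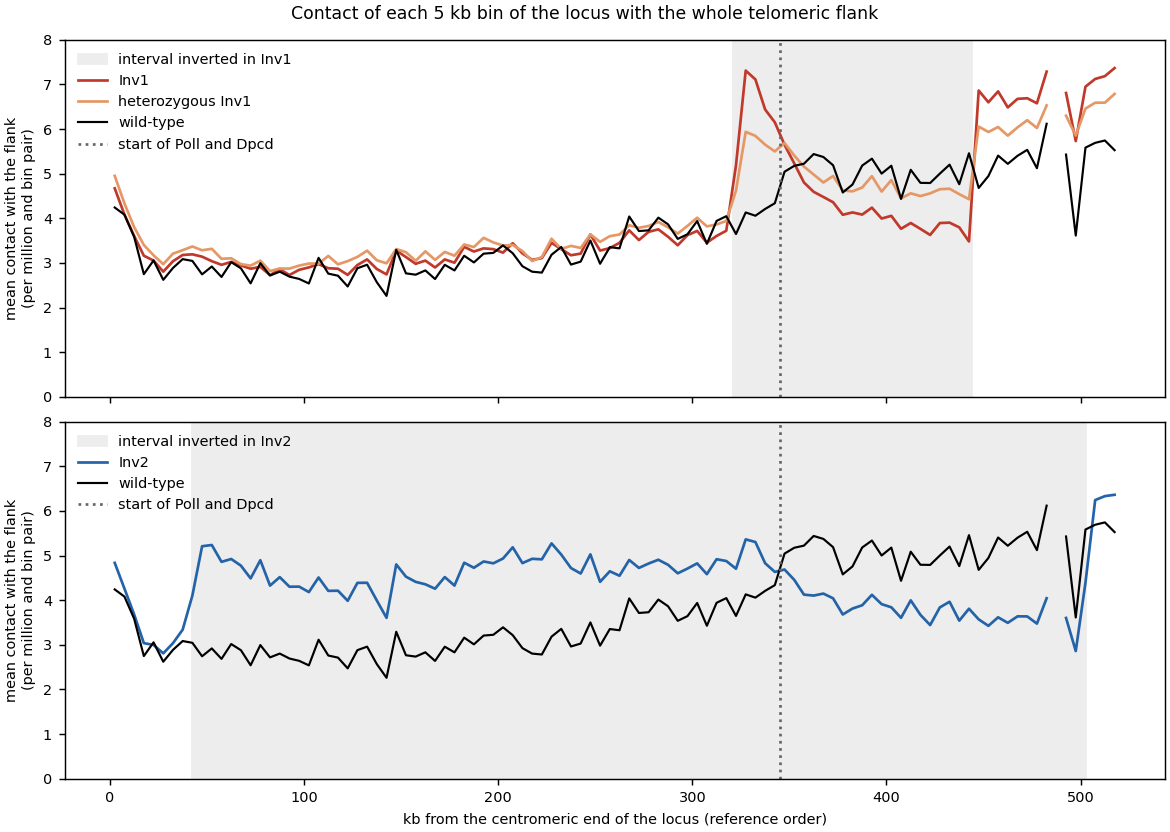
Mean contact of each 5 kb bin of the locus with the whole telomeric flank (per bin pair, wild-type total of 1000000), by distance in kb from the centromeric end of the locus in the reference order, with *Inv1* and heterozygous *Inv1* in the upper and *Inv2* in the lower panel, each beside the wild-type. The shaded intervals are inverted, and the dotted line marks the start of *Poll* and *Dpcd*, near which the lines of *Inv1* and of *Inv2* cross that of the wild-type.

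On the scale used here, the change of direction in both inversions lay within 2 bins of the start of *Poll* and *Dpcd*, at bases 45635021 and 45635105. *Poll* encodes DNA polymerase lambda, and *Dpcd* is a gene linked to motile cilia. The midpoints of the inverted intervals lie elsewhere, at 45672575 and 45562506. Where the change of direction lies under the other scalings was not followed by bin. This position was chosen after the profiles had been seen, so the parts on either side of it are a description only. In *Inv1*, the 5 bins between the centromeric cut and the *Poll* start had 6.44 against 4.08 in the wild-type, a ratio of 1.58 (1.55 to 1.61; 1.45 from distance), and all 5 bins lay between 1.42 and 1.77. The 20 bins between the *Poll* start and the telomeric cut had 4.19 in *Inv1* against 5.05 in the wild-type, a ratio of 0.830 (0.823 to 0.837; 0.912 from distance), and 18 of their 20 intervals lay below 1.

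The *Poll* start lies 125 kb before the flank in *Inv1* and 345 kb before it in *Inv2*, against 200.0 kb in the wild-type. In *Inv2*, the same 5 bins had 4.97 against 4.08 in the wild-type, a ratio of 1.22 (1.2 to 1.24), although distance alone gave 0.701. All 5 were higher, between 1.07 and 1.31. The higher level of the whole locus in *Inv2* was not taken out of these ratios. The same 20 bins had 3.93 in *Inv2* against 5.05 in the wild-type, a ratio of 0.779 (0.772 to 0.786; 0.473 from distance), and all 20 intervals lay below 1. On this scale, the 5 bins before the *Poll* start were thus higher in both inversions, and the 20 bins behind it were lower in both. *Inv1* brings the 5 bins nearer to the flank, and *Inv2* takes them farther away. In heterozygous *Inv1* the 5 bins had a ratio of 1.35 (1.33 to 1.38), where the equal mixture gave 1.29, and the 20 bins 0.947 (0.938 to 0.956), where it gave 0.915. The ratio of the 20 bins was 1.11 in heterozygous *Inv1* with the maps scaled to their totals only, which turned its direction, and stayed below 1 in *Inv1* (0.966) and in *Inv2* (0.824).

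Whether the inverted bins had the contact of their own sequence or that of their new place was described by setting each against the same bin and against the mirrored place in the wild-type. In *Inv2*, 57 of the 91 bins (62.6%) were nearer to the value of the mirrored place, and the median distance on the log2 scale was 0.35 to the mirrored place and 0.54 to the same bin. In *Inv1* this held for 15 of the 25 bins (60.0%), with median distances of 0.26 to the mirrored place and 0.34 to the same bin. With each bin taken against each of the 12 flank blocks, the shares were nearer to an even split. They were 621 of 1092 points (56.9%) in *Inv2* and 170 of 300 (56.7%) in *Inv1*. The 60 bins of *Inv2* before the *Poll* start had a mean of 4.66 in *Inv2*, against 3.18 in the wild-type at the same bins and 4.35 at the mirrored places. The 31 bins behind it had 3.82 in *Inv2*, against 5.10 at the same bins and 2.84 at the mirrored places. In *Inv1*, the 5 bins before the *Poll* start had 6.44, against 5.04 in the wild-type at the mirrored places, and the 20 behind it had 4.19, against 4.81. In *Inv1* the means of both parts lay beyond those of the mirrored places. In *Inv2* the mean of the 60 bins averaged over bins on either side of those of their places. The 31 nearest to the flank in the inverted order had 4.48 in *Inv2*, against 5.10 in the wild-type at the mirrored places, and 30 of them were lower. The other 29 had 4.85 in *Inv2*, against 3.55 in the wild-type at the mirrored places, and all 29 were higher.

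**Figure D5:**
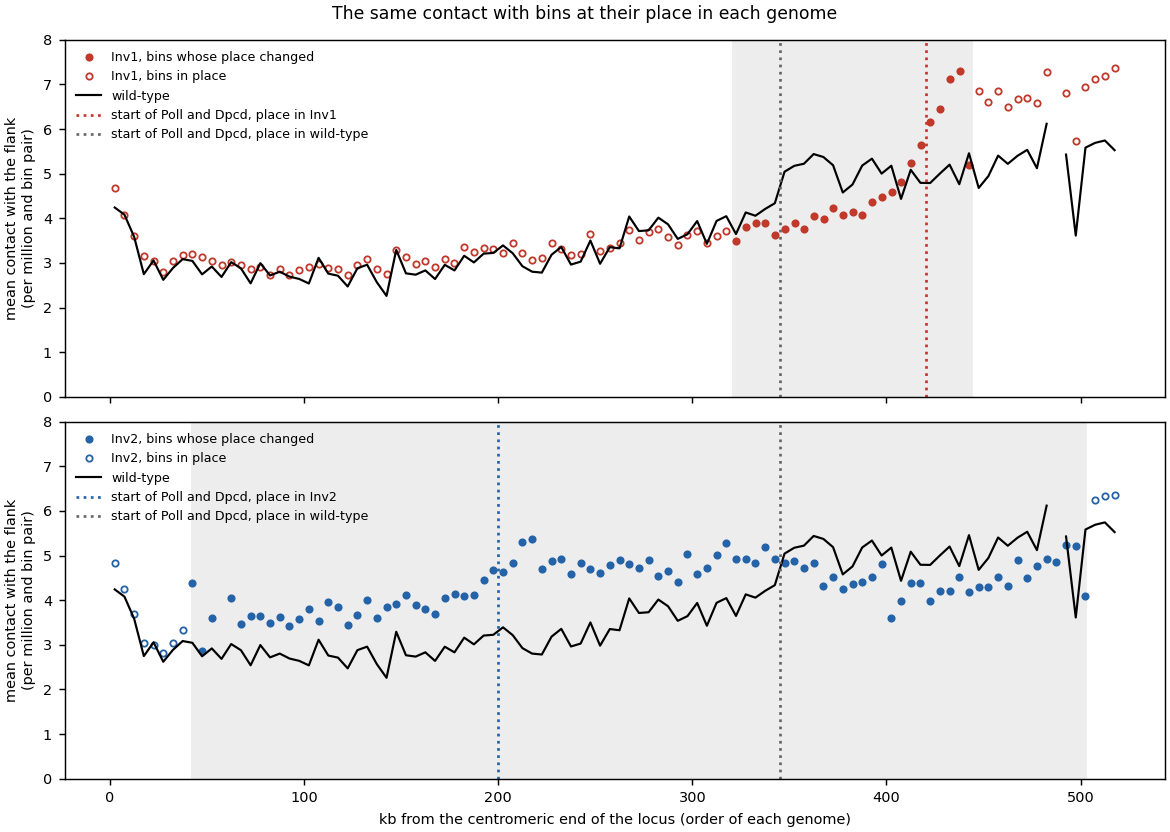
The same bin values drawn at the place each bin has in the inverted genome, in kb from the centromeric end of the locus, for *Inv1* and *Inv2*, with the wild-type in the reference order. Counting intervals are not drawn. In *Inv1* the unmoved bins beside the boundary (6.80) lie above the wild-type line, while in *Inv2* 30 of the 31 inverted bins nearest to the flank lie below it and the next 29 above it.

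By gene, each taken as the bin of its start with 1 bin on either side, *Btrc*, which encodes the substrate-recognizing subunit of a ubiquitin ligase, had a contact with the flank of 4.31 in *Inv2* against 2.77 in the wild-type, a ratio of 1.55 (1.51 to 1.60). *Gm6807*, a predicted gene within *Btrc*, had 4.78 in *Inv2* against 3.12, a ratio of 1.53 (1.49 to 1.57). *Fbxw4*, an F-box gene whose start lies just behind the telomeric cut of *Inv1*, had 3.64 in *Inv2* against 4.97 in the wild-type, a ratio of 0.733 (0.715 to 0.751). In *Inv2*, *Btrc* and *Gm6807* thus gained and *Fbxw4* lost contact with the flank. *Poll* and *Dpcd*, which share their bins, had ratios of 0.947 (0.927 to 0.966) in *Inv2*, where totals only gave 1.01 and the median over bin pairs 1.1, and 1.17 (1.15 to 1.19) in *Inv1*. The 3 bins of *Fbxw4* span the telomeric cut of *Inv1*. They had a ratio of 0.949 (0.927 to 0.971) in *Inv1*, in which the 2 moved bins were lower (3.80 and 3.48 in *Inv1*, against 4.76 and 5.46 in the wild-type) and the unmoved bin higher (6.86 in *Inv1*, against 4.68), and totals only gave 1.08. In *Inv1*, *Btrc* had a ratio of 1.1 (1.07 to 1.14) and *Lbx1* 1.07 (1.04 to 1.1). *Lbx1* had 2.95 in *Inv2* against 2.81 in the wild-type, a ratio of 1.05 (1.02 to 1.08; 0.977 with scaling factors from all bin pairs).

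Seen from the flank, the contact of the gene starts with the whole locus differed less. Each start was averaged over parts of the locus that move nearer and parts that move away. By flank block, distance alone therefore gave 1.00 in *Inv1* and 1.01 to 1.02 in *Inv2*. *Kcnip2*, which encodes a subunit of potassium channels, had 6.21 in *Inv1* and 6.76 in *Inv2*, against 5.76 in the wild-type, the lowest contact relative to distance of the 11 starts (0.643). *Elovl3*, a fatty acid elongase, had 2.27 in *Inv1* and 2.39 in *Inv2*, against 2.04 in the wild-type (0.647 of the mean at its distance). *Hps6*, whose product takes part in the making of lysosome-related organelles, had 5.22 in *Inv1* and 5.64 in *Inv2*, against 4.90 in the wild-type (1.07 of the mean at its distance). These genes had the highest ratios in both inversions, between 1.06 and 1.11 in *Inv1* and between 1.15 and 1.17 in *Inv2*. *Oga*, which encodes the enzyme that removes O-GlcNAc from proteins and starts in the first flank block, had ratios of 1.02 (0.999 to 1.03) in *Inv1* and 1.09 (1.08 to 1.11) in *Inv2*. The starts of *Armh3*, *Ldb1* with *Pprc1*, *Pitx3*, a homeobox gene of lens and midbrain, and *Gbf1*, a regulator of Golgi transport, had ratios between 1.01 and 1.04 in *Inv1* and between 1.05 and 1.11 in *Inv2*. On this scale no start of the flank had a ratio below 1 in either inversion, and none reached 1.2. As medians over bin pairs, ratios in *Inv1* were below 1 for *Oga* (0.931), *Kcnip2* (0.976), *Armh3* (0.920), *Hps6* (0.985), *Ldb1* (0.939) and *Gbf1* (0.996). With scaling factors from all bin pairs, ratios in *Inv2* were below 1 for *Armh3* (0.988), *Ldb1* (0.957), *Pitx3* (0.956) and *Gbf1* (0.954). The direction at these starts thus depended on the processing.

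In *Dup*, after balancing to equal bin totals, 62 blocks (47.0%) were higher and 0 lower, against 22.6% and 1.63% of all 861 blocks, with ratios between 0.881 and 1.84. In heterozygous *Dup*, 97 blocks (73.5%) were higher and 1 (0.758%) lower, against 20.7% and 6.16%. The 101 bins of the duplicated part had 4.29 in *Dup* against 3.78 in the wild-type, a ratio of 1.13 (1.13 to 1.14), and in heterozygous *Dup* 4.77, a ratio of 1.26 (1.25 to 1.27). These values depended on the scaling. In *Dup*, bin pairs nearer than the length of the duplication had a ratio of 1.00 (0.996 to 1.01) and those farther apart 1.37 (1.36 to 1.38), and the bin pairs that set the scaling at the longer distances include pairs that span the duplication and lie farther apart in *Dup*. With scaling from pairs on 1 side of the duplication, the longer distances had 1.01 (1.00 to 1.02), the whole part 1.00 (1.00 to 1.01), and 0.758% of blocks were higher. A gain in *Dup* was therefore not separable from the scaling.

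In heterozygous *Dup*, the same scaling gave 1.2 (1.19 to 1.2) for the whole part and 46.2% of blocks higher. The LOIC signal as deposited, which keeps the higher total of the duplicated bins, gave 1.72 (1.71 to 1.73) in *Dup* and 1.61 (1.60 to 1.62) in heterozygous *Dup*. By segment and on the balanced scale, the *Lbx1* segment had ratios of 1.29 in *Dup* and 1.24 in heterozygous *Dup*, the *Btrc* segment 1.21 and 1.23, the *Inv1* interval 1.05 and 1.28, and the segment telomeric of *Inv1* 1.01 and 1.33. In *Dup*, the ratio of the *Lbx1* segment turned to 0.961 with totals only and to 0.949 with scaling factors from pairs on 1 side, and the *Btrc* segment had 1.01 under either. The heterozygous map is 1 library and the shallowest, and its last locus block had a ratio of 1.60 with the first flank block but ratios between 0.79 and 1.03 with the others.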

How the data were processed

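Capture Hi-C of E11.5 limb buds was used as 6 merged maps. The authors mapped trimmed reads to mm9 (HiCUP with Bowtie2 2.4.2), pooled the replicates of a genotype and deposited contact signal in 5 kb bins, after KR balancing (Juicer tools 1.19.02) for the wild-type and inversions and after LOIC normalization for the *Dup* maps. A further 3 deposited maps hold the authors' subtractions and were not used. Read pairs were recovered by solving a factor per bin, with 100% of values whole within 0.01, giving 3350758 to 13101700 read pairs per map. They set the 95% counting intervals, which cover counting error only.

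The *Dup* maps were balanced to equal bin totals. Each mutant map was then brought to the wild-type mean at each distance, over bin pairs outside the rearranged interval, in place of a joint scaling. The wild-type decay, read at the distances of the rearranged order, gave the ratio expected from distance. Scripts were checked on simulated *Inv1* and *Inv2* maps drawn from the decay with distance. The handling of the *Dup* maps and of the heterozygous maps was not simulated. All genes of the locus were named. Of 11 starts in the flank, the 4 highest and 4 lowest relative to distance, the 3 largest rises in each inversion, and *Oga* were named. No start was named for a fall. Where the annotation gives older symbols, *Oga* is Mgea5 and *Armh3* is 9130011E15Rik. Python 3.11.15, numpy 2.4.6 and matplotlib 3.10.9 were used. The regions and lists were chosen with earlier results of these data known.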

Additional observations from a re-analysis of the deposited data

How the results depend on the processing

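No paired analysis was possible because the replicates of each genotype had been merged into 1 map before deposit, and for the same reason no replicate could be left out. The alternatives that brought both maps to their average, took scaling factors from pairs on 1 side or balanced the expected maps were chosen after seeing the data. Over all alternatives, 22 ratios of the inverted parts and the duplicated part stayed within the counting interval and 46 moved, and 72 shares of called blocks stayed within 1.5 times and 42 moved. Of the moved values, the causes were not tested. Below, ratios are contact with the flank over the wild-type for the part that moves nearer, the part that moves away or the duplicated part, and percentages are shares of blocks.

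Scaled to totals only, the nearer parts had 1.34 (*Inv1*), 1.75 (*Inv2*) and 1.31 (heterozygous *Inv1*), the parts that move away 0.892, 0.931 and 1.08, and the duplicated part 1.00 (*Dup*) and 1.22 (heterozygous *Dup*). Higher blocks were then 2.27% in *Dup*, 81.1% in *Inv1* and 79.5% in heterozygous *Inv1*, and lower blocks 10.6% in *Inv2*, 1.52% in heterozygous *Dup* and 0 in heterozygous *Inv1*. With read pairs that were not balanced, the nearer parts had 1.21, 1.63 and 1.23, the parts that move away 0.791 (*Inv1*) and 0.905 (*Inv2*), and the duplicated part 1.71 and 1.76, with 91.7% (*Dup*) and 19.7% (heterozygous *Inv1*) of blocks higher and 2.27% (*Inv1*) and 8.33% (heterozygous *Dup*) lower. With scaling factors from all bin pairs, *Inv2* had 1.38 and 0.826, *Dup* 1.01 and heterozygous *Dup* 1.15, with 13.6% and 32.6% of blocks higher in the *Dup* maps and 2.27% (*Inv1*) and 6.06% (heterozygous *Dup*) lower. With factors from pairs on 1 side, *Dup* had 1.00 and heterozygous *Dup* 1.2, with 0.758% and 46.2% of blocks higher, 43.2% in heterozygous *Inv1*, and 1.52% lower in heterozygous *Dup*. The deposited LOIC signal gave 1.72 and 1.61, with 91.7% of blocks higher in *Dup* and 0 lower in heterozygous *Dup*. Brought to the average of both maps, *Dup* had 1.12.

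Without bins of low coverage, *Inv2* had 1.57 and 0.884, *Dup* 1.13 and heterozygous *Dup* 1.25, with 2.27% (*Inv1*) and 1.52% (heterozygous *Dup*) of blocks lower. Without the last 100 kb of the flank the values were 1.59 and 0.871, 1.1 and 1.25. Without 2 bins on either side of each cut, the nearer parts of *Inv1* and heterozygous *Inv1* had 1.01 and 1.04, the parts that move away 0.788 (*Inv1*), 0.886 (*Inv2*) and 0.933 (heterozygous *Inv1*), and *Dup* 1.14, with 5.3% of blocks lower in *Inv1*. As medians over bin pairs, the nearer parts had 1.21, 1.54 and 1.21, the parts that move away 0.824, 0.928 and 0.966, and the duplicated part 1.21 and 1.28. At a fold of 1.5, blocks higher were 18.2% in *Inv2*, 21.2% in *Dup*, 7.58% in heterozygous *Dup* and 0 in both *Inv1* maps, and blocks lower 2.27% in *Inv2* and 0 in *Inv1* and both heterozygous maps. In blocks of 20 kb, 0.133% (*Dup*), 7.16% (*Inv1*), 1.59% (heterozygous *Dup*) and 1.99% (heterozygous *Inv1*) were lower and 15.5% higher in heterozygous *Inv1*. In blocks of 100 kb, 11.1% (*Inv1*) and 2.78% (heterozygous *Inv1*) were higher, and 2.78% (heterozygous *Dup*), 0 (*Inv1*) and 0 (heterozygous *Inv1*) lower.

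With the decay taken from the bin pairs of locus and flank alone, the ratio expected from distance was 1.15 and 0.856 in *Inv1*, 1.70 and 0.587 in *Inv2*, 1.08 and 0.928 in heterozygous *Inv1* (nearer and away), 1.48 in *Dup* and 1.24 in heterozygous *Dup*. With the expected maps balanced and scaled like the measured ones, it turned to 0.987 in *Dup* and 0.945 in heterozygous *Dup*, and was 2.07 for the nearer part in *Inv2*. The *Lbx1* segment in *Dup* turned to 0.961 with totals only and 0.949 with factors from pairs on 1 side. Of the values of segments, parts and genes, 289 stayed within the counting interval and 258 moved, while these 2 values of the *Lbx1* segment turned from a ratio past 1.2. Counting ratios nearer to 1 as well, 32 of the 549 values lay on the other side of 1.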
